A study of Mus musculus with 9 samples.

Results

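The 9 complement genes described here are C1qa, C1qb, C1qc, C3, C4b, Cfb, C3ar1, C5ar1 and Serping1. They were chosen by symbol and make up 9 of the 22195 genes in the transcript tables of bulk RNA from mouse tumors. The tumors grew from YUMMER1.7 melanoma cells placed under the skin of C57BL/6J mice. Once tumors were established, one group received an anti-B7-H3 antibody, one an anti-PD1 antibody and the last an isotype control, called IgG. The combination of both antibodies, which the study's design also names, was not analysed here. Each group has 3 libraries, and all 9 tumors share the cell line, the site and the mouse strain. Nothing in the labels ties a library to a single animal, and the p-values therefore cover the variation among these libraries, which may be partly technical. All 9 genes had enough reads to be tested, among 12980 tested genes.

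Complement is a cascade of plasma and tissue proteins that tags targets and recruits immune cells. In the classical pathway, C1q binds antibody on a surface, its proteases cleave C4 and C2, and the resulting enzyme splits C3. The alternative pathway amplifies C3 cleavage through factor B. The fragments C3a and C5a act on myeloid cells through their receptors, and C1 inhibitor restrains the first proteases. The liver supplies most circulating C3, C4 and factor B, whereas C1q is made largely by macrophages and dendritic cells within tissues.

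The libraries differed in composition. Estimated reads outside 12 major satellite genes ran from 7239044 to 14408350 with anti-B7-H3, from 5326276 to 9583684 with anti-PD1 and from 1252540 to 3546706 with IgG. These satellite genes, which carry the tandem repeat found beside mouse centromeres, took between 5.24 and 28.2% of gene reads with anti-B7-H3, between 14.6 and 38.2% with anti-PD1 and between 87.0 and 92.0% with IgG. Olfactory and vomeronasal receptor genes, a measure of background, had 0.347 to 0.887 reads per kilobase of coding sequence with anti-B7-H3, 0.402 to 0.919 with anti-PD1 and 1.68 to 3.75 with IgG. Both measures separate the IgG libraries from the others, and fits with the receptor level as a covariate, or with reads outside the satellites as the scale, were among the alternatives tried. Of the 7 melanocyte genes checked, Mitf alone passed the read filter. The melanosome genes Pmel, Mlana, Tyr, Tyrp1 and Dct had at most 7 reads in any library, and Sox10 had at most 18. The melanosome markers of pigmented melanoma cells were thus close to absent from tumors labelled as melanoma. Hepatocyte genes were close to absent: 0 of 9 passed the filter, and their summed level was 0.154 to 0.307 TMM-scaled CPM with anti-B7-H3, 0.313 to 0.946 with anti-PD1 and 1.79 to 10.6 with IgG. TMM-scaled CPM are counts scaled to a common library size, adjusted so that the typical gene does not differ between libraries.

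The C1q genes were the most abundant of the 9 in every library. C1qa, C1qb and C1qc encode the chains of one hexameric recognition protein and lie side by side on chromosome 4 within 18675 bases (136880129 to 136898803 on GRCm38, minus strand). Within each of the 9 libraries, all 3 stood above the other 6 genes in TPM, which counts reads per transcript length. The lowest C1q gene exceeded the highest of the other 6 by 5.64-fold to 12.4-fold. C1qa was the highest of all in 8 libraries, and C1qc was the highest in IgG replicate 2. In TPM taken over genes outside the satellites, C1qa averaged 587 with anti-B7-H3, 396 with anti-PD1 and 272 with IgG, which placed it above 98.3, 97.5 and 97.7% of tested genes in these groups. Background read share differs between libraries, so TPM serve here to order genes within a library and not to compare groups.

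**Figure D1:**
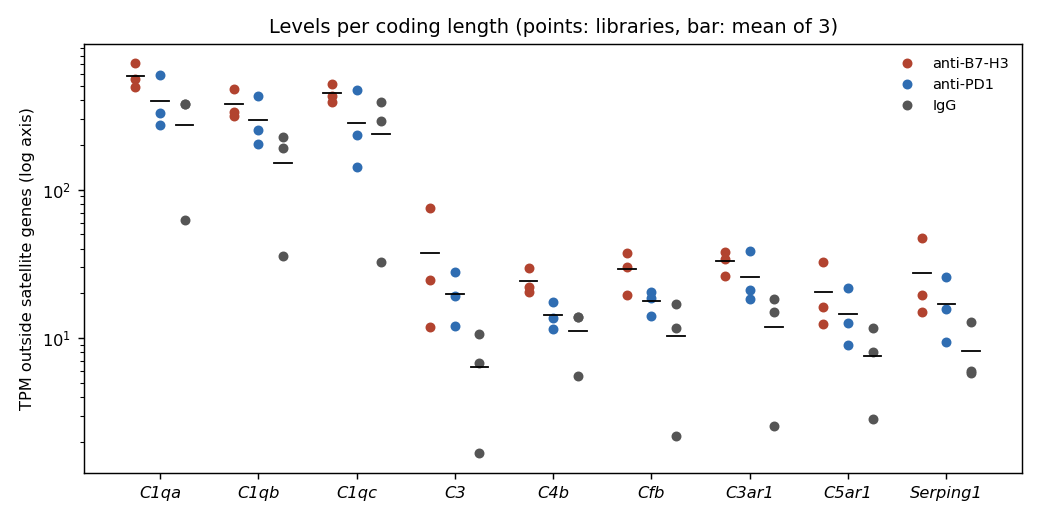
TPM of each complement gene over genes outside the satellites, on a log axis, with 1 point for each library and a bar at the mean of 3. In each library C1qa, C1qb and C1qc lie above the other 6 genes, by at least 5.64-fold.

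The upstream sequence of the C1q genes is shown because the levels of these genes were alike across libraries. This was not particular to them: C3ar1 had Pearson r from 0.863 to 0.976 with the C1q genes. The RefSeq promoter table for GRCm38.p6 held 5 of the 9 genes (C1qb, C1qc, C3, C3ar1 and C5ar1), and the 250 bases before the RefSeq start were searched on both strands. For C1qb the whole window is printed, chr4:136886201-136886450. For C1qc only the 99 bases upstream of the start annotated by GENCODE are printed, chr4:136893066-136893164. Both are given 5′ to 3′ on the minus strand, the strand of transcription, and capitals mark GAGGAA or its reverse complement, the core bound by the myeloid factor PU.1.
C1qb: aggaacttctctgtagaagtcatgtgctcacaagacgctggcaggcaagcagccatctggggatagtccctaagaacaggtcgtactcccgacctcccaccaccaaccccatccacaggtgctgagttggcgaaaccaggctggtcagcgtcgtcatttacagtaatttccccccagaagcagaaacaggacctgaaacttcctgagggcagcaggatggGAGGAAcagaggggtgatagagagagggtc
C1qc: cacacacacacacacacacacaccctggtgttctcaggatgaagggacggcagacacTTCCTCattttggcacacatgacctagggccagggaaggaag

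The PU.1 core occurred in C1qb, 30 bases before the start, and in C1qc, 193 bases before the RefSeq start, and was absent from the windows of C3, C3ar1 and C5ar1. It occurs in 23.1% of the 27025 promoter windows of this length. In the C1qc and C5ar1 windows, 151 and 202 of the 250 bases lie past the start annotated by GENCODE. Most of the sequence searched there was therefore inside the annotated gene. The interferon-gamma element TTCNNNGAA (7.18% of windows), the interferon element of GAAA and GAAA with 2 bases between them (3.04%) and the NF-kB letters GGGA and TTCC with 2 bases between them (1.17%) did not occur in any of the 5 windows. These are matches of letters in a window and say nothing about binding.

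C1qa had 153, 141 and 202 TMM-scaled CPM in the anti-B7-H3 libraries, 83.5, 188 and 91.8 in the anti-PD1 libraries and 163, 125 and 43.6 in the IgG libraries. The anti-B7-H3 libraries were close to each other, whereas anti-PD1 replicate 2 stood high and IgG replicate 3 low within their groups, and the groups overlapped. C1qb had 89.7, 99.2 and 141 CPM under anti-B7-H3, 64.7, 143 and 73.8 under anti-PD1 and 86.2, 78.4 and 26.2 under IgG. Every anti-B7-H3 library was above every IgG library for C1qb, the highest IgG library by a narrow margin. C1qc had 118, 112 and 149 CPM under anti-B7-H3, 44.0, 150 and 65.6 under anti-PD1 and 126, 131 and 23.0 under IgG. Here 2 IgG libraries stood above 2 anti-B7-H3 libraries.

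**Figure D2:**
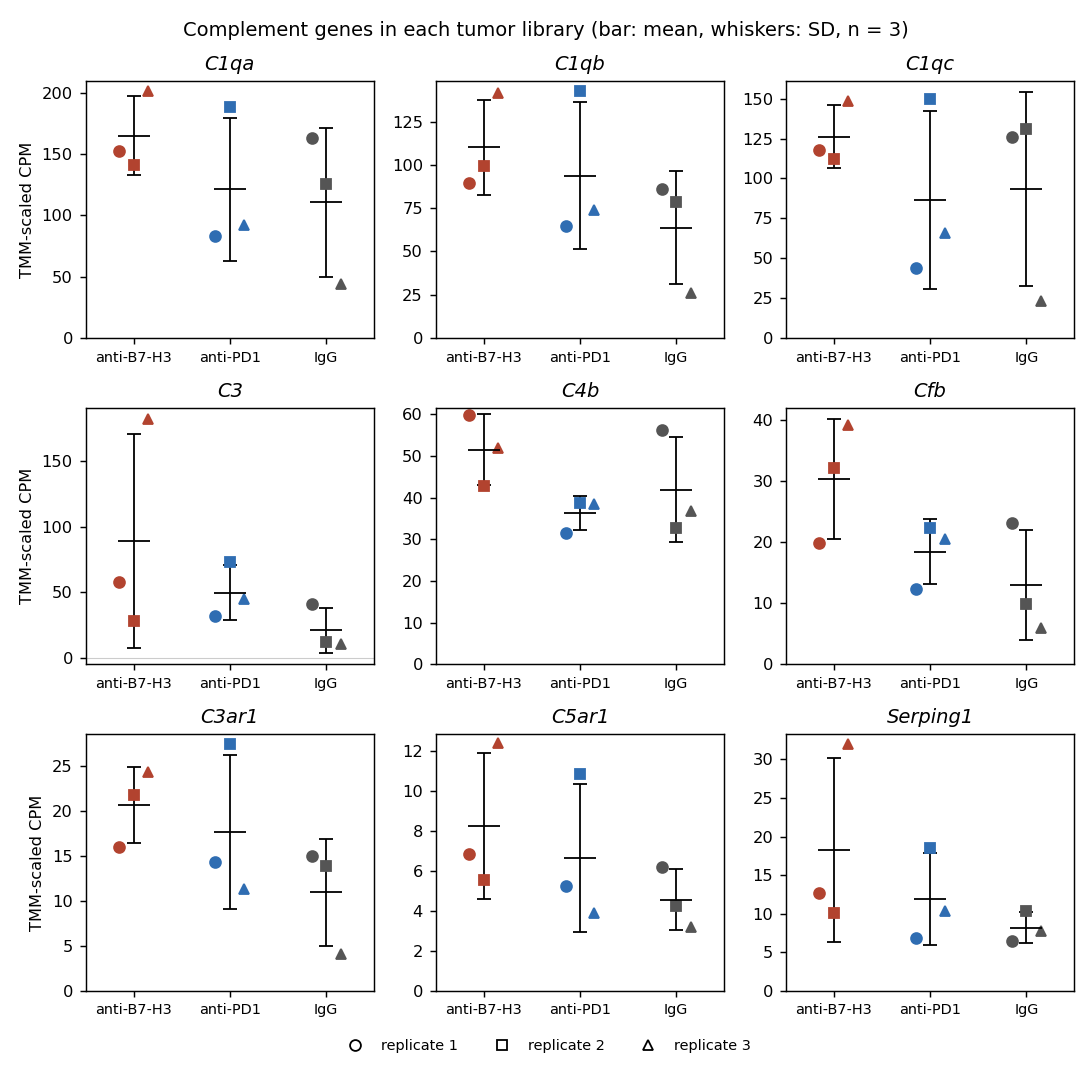
TMM-scaled CPM of each complement gene in each of the 9 libraries, with the mean and SD of 3 libraries for anti-B7-H3, anti-PD1 and IgG. Replicate 3 of anti-B7-H3 (5 genes) or replicate 2 of anti-PD1 (3 genes) is the highest library for 8 of the 9 genes, and IgG replicate 3 is the lowest for 7.

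None of the C1q genes passed edgeR's quasi-likelihood test between groups, which called 0.609% of all genes in the anti-B7-H3 comparison with IgG, 0.408% in that of anti-PD1 with IgG and 0% between the antibodies. Against IgG, the log2 fold changes with anti-B7-H3 were 0.57 ± 0.44 (SE) for C1qa, 0.77 ± 0.43 for C1qb and 0.41 ± 0.60 for C1qc (edgeR adjusted p = 0.709, 0.571 and 0.867). Against IgG, those with anti-PD1 were 0.12 ± 0.44 for C1qa, 0.54 ± 0.42 for C1qb and -0.13 ± 0.60 for C1qc (edgeR adjusted p = 0.918, 0.525 and 0.937). The intervals were wide: the 95% interval for C1qa with anti-B7-H3 against IgG ran from 0.748-fold to 2.93-fold. Without IgG replicate 3 the C1qc change with anti-B7-H3 was -0.025 and the C1qa change with anti-PD1 was -0.24. The C1qc change with anti-PD1 was 0.064 when libraries were scaled by reads outside the satellites.

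The shares of the summed C1q TPM that each chain took did not depend on library scale. C1qa took 42.9, 40.5 and 41.6% under anti-B7-H3, 44.1, 39.7 and 40.3% under anti-PD1 and 44.0, 37.9 and 47.7% under IgG. The C1qb share was 24.2, 27.4 and 28.0% under anti-B7-H3, 32.8, 28.9 and 31.1% under anti-PD1 and 22.2, 22.7 and 27.4% under IgG, so the anti-PD1 libraries lay above all others, the lowest of them narrowly. The C1qc share was lowest in anti-PD1 replicate 1, at 23.1%, and in IgG replicate 3, at 24.9%. These shares are descriptions over 3 libraries a group and were given no test. Across the 9 libraries the log2 CPM of the 3 genes had Pearson r from 0.913 to 0.970 between pairs. C3ar1 reached similar values, with r = 0.921 to C1qa, 0.976 to C1qb and 0.863 to C1qc.

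C1q was highest in the libraries that were highest for other macrophage genes, but did not follow them in every library. All 17 macrophage genes on the list, which include the receptor Csf1r and the lysosomal gene Cd68, had reads in every library. In IgG replicate 3 some had few: Cd14 had 3 reads, Tyrobp 4 and Cx3cr1 8. This list was not set against the receptor background. Of the 17 genes, 15 had positive estimates with anti-B7-H3 against IgG, as had 15 with anti-PD1 against IgG, where 53.3 and 50.4% of all genes were positive. In edgeR 0 of the 17 passed over all genes, and 8 and 5 had an unadjusted p under 0.05, against 10.5 and 18.5% of all genes. Their summed level was 610, 580 and 1096 CPM under anti-B7-H3, 545, 1156 and 468 under anti-PD1 and 465, 342 and 266 under IgG. The libraries highest for macrophage genes, replicate 3 of anti-B7-H3 and replicate 2 of anti-PD1, were also highest for C1qa and C1qb, and IgG replicate 3 was lowest for both. Between these extremes the order differed. In log2 CPM, IgG replicate 2 had mean C1q at 6.80 and the macrophage list at 3.69. Anti-PD1 replicates 1 and 3 had lower C1q, at 6.00 and 6.27, with higher macrophage levels, at 4.05 and 3.97. In bulk RNA, fewer macrophages and less RNA per macrophage cannot be told apart. Relative to the mean log2 level of the macrophage list, the mean C1q level was 2.5, 2.60 and 2.29 log2 units higher under anti-B7-H3, 1.95, 2.22 and 2.30 under anti-PD1 and 2.83, 3.11 and 1.65 under IgG. On this ratio, which does not depend on library scale, anti-B7-H3 and IgG overlapped, with means of 2.47 ± 0.16 and 2.53 ± 0.78 (SD, n = 3 each). Anti-PD1 averaged 2.16 ± 0.18.

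**Figure D3:**
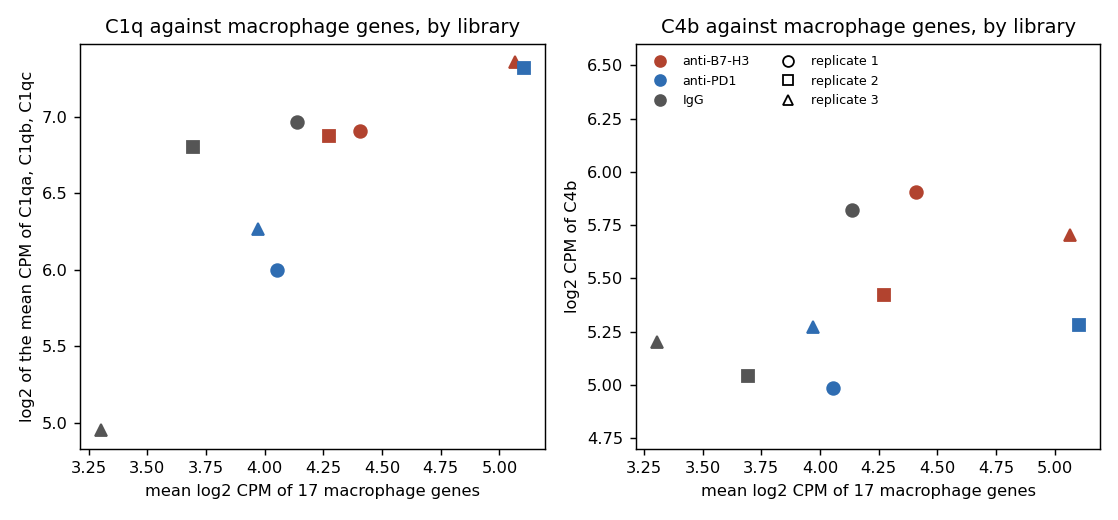
Left, log2 of the mean CPM of C1qa, C1qb and C1qc against the mean log2 CPM of 17 macrophage genes, 1 point for each library. Right, log2 CPM of C4b against the same axis. C1q is highest in the 2 libraries with the highest macrophage level and lowest in IgG replicate 3, whereas C4b spans 1.90-fold across all 9 libraries.

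C3, the protein on which all pathways converge, had the largest estimated difference between groups and the widest spread. It had 57.6, 28.6 and 182 CPM in the anti-B7-H3 libraries, 31.7, 72.8 and 44.9 in the anti-PD1 libraries and 41.0, 12.3 and 10.6 in the IgG libraries. Anti-B7-H3 replicate 3 stood far above the others, and IgG replicate 1 lay above anti-B7-H3 replicate 2, so the groups overlapped. The log2 fold change against IgG was 2.04 ± 0.79 (SE) with anti-B7-H3 and 1.20 ± 0.78 in the anti-PD1 group (edgeR adjusted p = 0.386 and 0.443). The estimate for anti-B7-H3 over anti-PD1 was 0.84 ± 0.74 (edgeR adjusted p = 0.825), and -0.21 without anti-B7-H3 replicate 3. Leaving out single libraries, the estimate for anti-B7-H3 against IgG ran from 1.00 to 2.96. The lower end of its 95% interval was 1.17-fold and the upper end 14.5-fold.

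The IgG values of C3 rest on few reads. C3 (chromosome 17, 57203970 to 57228136) had 23 reads in IgG replicate 3, where the receptor genes of that library predict 18.7 reads for its coding length of 4992 bases. IgG replicate 1 had 211 reads against 14.9 predicted, and IgG replicate 2 had 110.1 reads against 8.36 predicted. Every C3 library of the antibody groups exceeded its prediction by at least 95-fold.

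**Figure D4:**
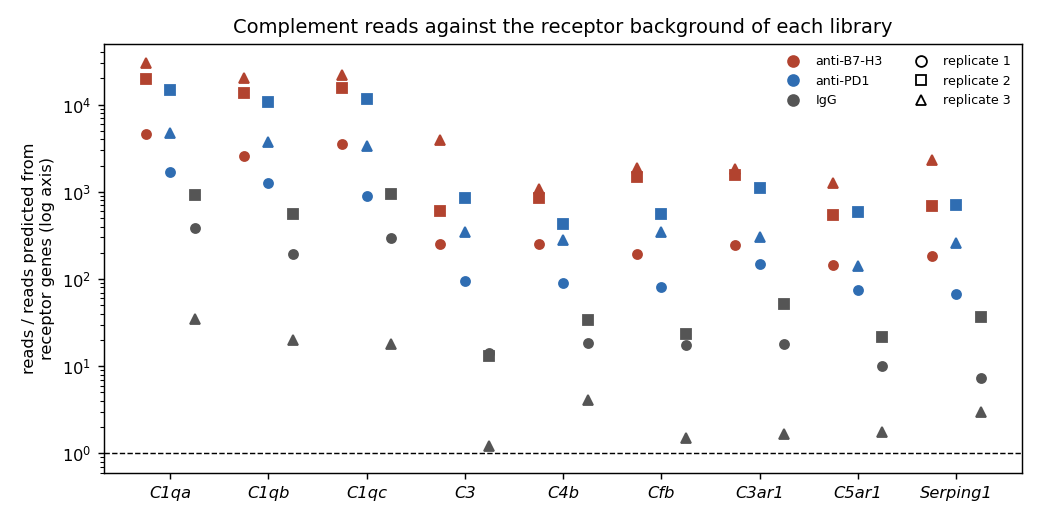
Reads of each complement gene divided by the reads that olfactory and vomeronasal receptor genes of the same library predict for its coding length, on a log axis, 1 point for each library. The dashed line is a ratio of 1. IgG replicate 3 lies nearest to it, at 1.23 for C3.

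C4b, the classical pathway component C4 (chromosome 17, 34728380 to 34743882), varied least among the 9 genes. It had 59.9, 42.8 and 52.0 CPM under anti-B7-H3, 31.6, 38.7 and 38.5 under anti-PD1 and 56.3, 32.8 and 36.7 under IgG. The value in IgG replicate 3 rests on 80 reads, against 19.5 predicted from its receptor background. All anti-B7-H3 libraries were above all anti-PD1 libraries, and IgG overlapped both. The difference between the antibody groups was 0.50 ± 0.22 in log2 (SE), with a 95% interval from 1.01-fold to 1.99-fold, and did not pass over all genes (edgeR adjusted p = 0.749). Against IgG, C4b stood at 0.29 ± 0.23 with anti-B7-H3 and -0.21 ± 0.23 in the anti-PD1 group (edgeR adjusted p = 0.702 and 0.655), and the anti-PD1 estimate was 0.055 when libraries were scaled by reads outside the satellites. Relative to the macrophage list, C4b was 1.5, 1.15 and 0.64 log2 units higher under anti-B7-H3, 0.93, 0.18 and 1.30 under anti-PD1 and 1.68, 1.35 and 1.90 under IgG. Since C4b varied little, this ratio mostly follows the macrophage level. Fibroblast genes, such as Col1a1 and Dcn, summed to 9099, 6051 and 5720 CPM under anti-B7-H3, 5847, 5254 and 6782 under anti-PD1 and 6266, 8038 and 3026 under IgG, and their part in the C4b values was not tested. The near-identical copy C4a is not among the listed transcripts, so reads from C4a could be counted under C4b.

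Cfb, the protease of the alternative pathway, lies near C4b on chromosome 17 (34856374 to 34862518). It had 19.9, 32.2 and 39.3 CPM under anti-B7-H3, 12.4, 22.4 and 20.6 under anti-PD1 and 23.1, 9.93 and 5.97 under IgG. Anti-B7-H3 replicate 1 lay below IgG replicate 1, and the remaining anti-B7-H3 libraries stood above all others. The value in IgG replicate 3 rests on 13 reads, against 8.58 predicted from its receptor background. The log2 fold change with anti-B7-H3 against IgG was 1.18 ± 0.43 (SE), with the smallest p of the 9 genes in this comparison, and did not pass over all genes (edgeR adjusted p = 0.322). With anti-PD1 against IgG it was 0.46 ± 0.43 (edgeR adjusted p = 0.595). How Cfb reads were assigned to 2 listed transcripts of 2286 and 2292 bases differed between libraries: the shorter took 100% in anti-B7-H3 replicate 1, 0% in anti-B7-H3 replicates 2 and 3 and 48.6% in IgG replicate 1. Only the sum over transcripts is used here.

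Serping1, which encodes C1 inhibitor (chromosome 2, 84765387 to 84775444), had 12.7, 10.1 and 32.0 CPM under anti-B7-H3, 6.84, 18.6 and 10.3 under anti-PD1 and 6.41, 10.4 and 7.80 under IgG. Anti-B7-H3 replicate 3 was again the highest library, and the groups overlapped. The IgG values rest on 33, 93 and 17 reads, and the receptor background of IgG replicate 3 predicts 5.67. The log2 fold change against IgG was 1.13 ± 0.50 (SE) with anti-B7-H3 and 0.52 ± 0.51 in the anti-PD1 group (edgeR adjusted p = 0.468 and 0.616). Without anti-B7-H3 replicate 3 the anti-B7-H3 estimate was 0.45, and that against anti-PD1 was -0.076.

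Interferon gamma is known to induce Cfb, Serping1 and C4. The 14 genes of the interferon-gamma list, such as Irf1 and Gbp2, summed to 482, 1352 and 1582 CPM under anti-B7-H3, 478, 373 and 712 under anti-PD1 and 1167, 379 and 623 under IgG. The sum was highest in anti-B7-H3 replicate 3, anti-PD1 replicate 3 and IgG replicate 1 of their groups. Cfb was highest in the same library as the sum in the anti-B7-H3 and IgG groups, Serping1 in the anti-B7-H3 group alone and C4b in the IgG group alone. In anti-PD1 replicate 2, which had the lowest sum, all 3 genes were at their highest for that group. For C4b the margin was narrow, with 38.7 CPM against 38.5 in anti-PD1 replicate 3. Within anti-B7-H3, C4b was highest in replicate 1, where the sum was lowest. Serping1 was highest of its group in IgG replicate 2, where the sum was lowest. However, Gbp5 alone held 349 of the 623 CPM in IgG replicate 3. By the mean log2 CPM of the list, IgG replicate 3 was the lowest of its group, at 4.096 against 4.365 in replicate 2. The list had a median log2 fold change of 0.90 with anti-B7-H3 against IgG, -0.12 with anti-PD1 against IgG and 0.95 with anti-B7-H3 against anti-PD1. In each of these comparisons 0 of its 14 genes passed over all genes in edgeR, and 2, 1 and 1 had an unadjusted p under 0.05, against 10.5, 18.5 and 6.48% of all genes. The part of interferon gamma in the complement values was not tested.

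The receptors for the anaphylatoxins were of middling abundance per length: in TPM, C3ar1 lay above 64.7% of tested genes with anti-B7-H3, 60.5% under anti-PD1 and 49.7% under IgG, and C5ar1 above 50.7, 43.2 and 36.1% in the same order. These shares place each gene among the genes of 1 group and do not compare groups, since background differs. C3ar1, the C3a receptor (chromosome 6, 122847138 to 122856161), had 15.9, 21.7 and 24.3 CPM under anti-B7-H3, 14.3, 27.4 and 11.3 under anti-PD1 and 15, 13.8 and 4.13 under IgG. All anti-B7-H3 libraries were above all IgG libraries, the closest pair differing by less than 1 CPM. C5ar1, the C5a receptor (chromosome 7, 16246743 to 16259540), had 6.84, 5.55 and 12.4 CPM under anti-B7-H3, 5.24, 10.8 and 3.88 under anti-PD1 and 6.22, 4.24 and 3.21 under IgG, and the groups overlapped. Against IgG, C3ar1 stood at 0.83 ± 0.42 (SE) with anti-B7-H3 and 0.60 ± 0.42 in the anti-PD1 group (edgeR adjusted p = 0.535 and 0.465). C5ar1 stood at 0.82 ± 0.46 with anti-B7-H3 and 0.51 ± 0.46 in the anti-PD1 group (edgeR adjusted p = 0.571 and 0.586). IgG replicate 3 held 9 reads of C3ar1 and 7 of C5ar1, against 5.37 and 3.96 predicted from its receptor background. Neutrophils also carry C5a receptors. Of the 12 neutrophil genes, 3 passed the read filter, and the list summed to 51.3, 75.9 and 69.7 CPM under anti-B7-H3, 41.5, 74.7 and 47.1 under anti-PD1 and 88.6, 62.8 and 58.3 under IgG. Most of this sum was Mmp9, which other cells also express, with 46.4, 67.7 and 61.3 CPM under anti-B7-H3, 36.9, 69.2 and 42.1 under anti-PD1 and 79.4, 57.4 and 39.9 under IgG. The defining neutrophil genes S100a8, S100a9, Ly6g, Cxcr2 and Retnlg had too few reads to be tested, so the sum gives no neutrophil level.

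No gene of the 9 passed the test in any comparison. Against IgG, 9 of 9 genes had a positive log2 fold change with anti-B7-H3, with a median of 0.82, whereas 53.3% of all tested genes were positive and their median was 0.03. Of the 9 genes, 0 passed over all genes in edgeR, where 0.609% of all genes were called. At an unadjusted p under 0.05, 3 of the 9 were higher (Cfb, C3 and Serping1), against 3.58% of all genes, and DESeq2 and limma-voom called 0. Non-overlapping groups with higher anti-B7-H3 libraries occurred for 2 of the 9, C1qb and C3ar1, against 7.72% of all genes. The 9 genes were measured in the same libraries, so these counts are not independent. With the receptor level as a covariate 7 of the 9 estimates were negative, and since the IgG libraries have the highest receptor levels, this level and the IgG group cannot be told apart. With library totals as the scale, satellite reads included, the median of all genes was 3.37, and all 9 genes were called along with most of the table.

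With anti-PD1 against IgG, 7 of 9 estimates were positive and the median was 0.51, against 50.4% positive and a median of 0.01 over all genes. In edgeR 0 of the 9 passed, where 0.408% of all genes were called, 0 had an unadjusted p under 0.05, against 7.68% of all genes that were higher at that level, and 0 had non-overlapping groups, against 11.1% of all genes that were higher without overlap. Between the antibodies, 9 of 9 estimates were positive for anti-B7-H3 over anti-PD1, against 51.1% of all genes, with a median of 0.50 against 0.01 over all genes. Of the 9, 0 passed in edgeR, where 0% of all genes were called (841 genes at an unadjusted p under 0.05, and 24 by DESeq2). One of the 9, C4b, had an unadjusted p under 0.05, against 3.93% of all genes that were higher at that level, and C4b was also the one with non-overlapping groups, against 7.57% of all genes. The 2 comparisons with IgG share the IgG libraries, and so their estimates are not independent of each other. In 1 test of any difference among the 3 groups, 0 of the 9 passed (lowest edgeR adjusted p = 0.354, for Cfb), where 1.22% of all genes were called, and Cfb alone had an unadjusted p under 0.05, against 14% of all genes.

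**Figure D5:**
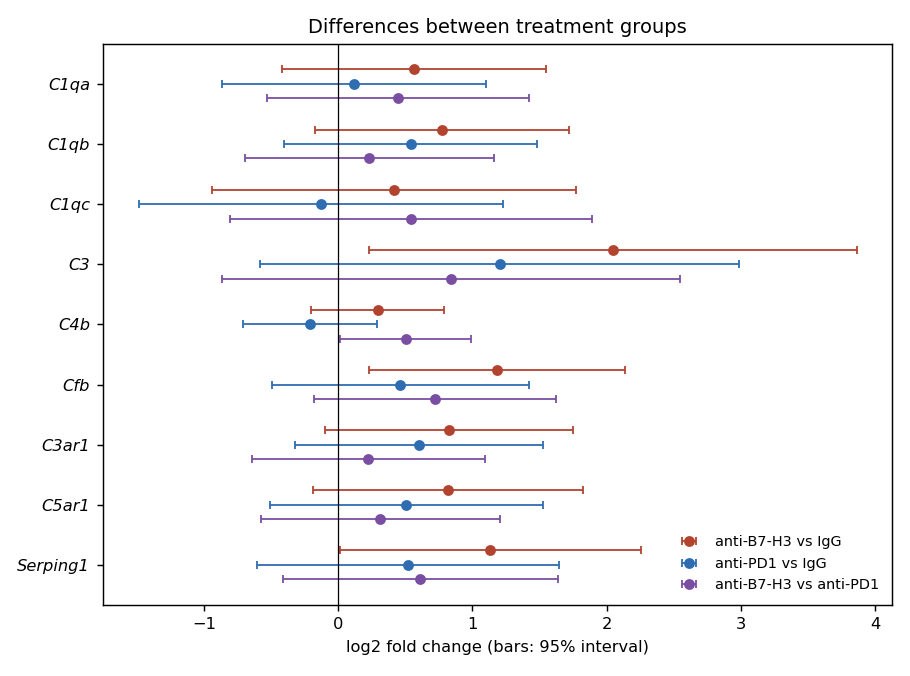
Log2 fold change of each complement gene with its 95% interval from the edgeR fit, for anti-B7-H3 against IgG, anti-PD1 against IgG and anti-B7-H3 against anti-PD1. The estimate for C3 with anti-B7-H3 against IgG, 2.04, is the largest, and intervals that exclude 0 did not pass after adjustment over all genes.

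The high libraries were also high for another tissue. Anti-B7-H3 replicate 3 was the highest library for 5 of the 9 genes and anti-PD1 replicate 2 for 3. The 10 skeletal muscle genes, such as Acta1 and Ckm, summed to 259, 1.05 and 1565 CPM under anti-B7-H3, 64.7, 1108 and 463 under anti-PD1 and 26.6, 51.5 and 22.5 under IgG. The same 2 libraries were thus the highest for muscle genes, and the part of muscle tissue in the complement values was not tested. In edgeR 0 of the 10 muscle genes, 0 of the 10 fibroblast genes and 0 of the 3 tested neutrophil genes passed in any of the 3 comparisons.

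The rest of the pathway was measured through 40 further complement genes, of which 20 had enough reads to be tested. In edgeR 0 of the 20 passed in any of the 3 comparisons, and 6, 6 and 3 had an unadjusted p under 0.05 for anti-B7-H3 against IgG, anti-PD1 against IgG and anti-B7-H3 against anti-PD1. Over all genes these shares were 10.5, 18.5 and 6.48%. Median log2 fold changes were 0.19, 0.24 and -0.01 in the same order. Clu, which encodes the terminal pathway inhibitor clusterin, had 25, 29.3 and 39.7 CPM under anti-B7-H3, 24.4, 68.2 and 39.1 under anti-PD1 and 25.6, 24.3 and 28.5 under IgG. Cr1l, a membrane regulator in mice, stood at 0.28 with anti-B7-H3 and 0.44 in the anti-PD1 group against IgG.

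Subunits of the receptors for cleaved C3 were higher in estimate with anti-B7-H3. Itgb2, the shared integrin chain, had 24.6, 36.3 and 65.3 CPM under anti-B7-H3, 17.8, 29.8 and 21.0 under anti-PD1 and 28.6, 12.1 and 15.6 under IgG (log2 fold change with anti-B7-H3 against IgG 1.17, edgeR adjusted p = 0.301). Its partners Itgam and Itgax stood at 1.05 and 1.12 in the same comparison (edgeR adjusted p = 0.443 and 0.324). Itgax, also a dendritic cell gene, had 14.6, 42.8 and 39.8 CPM under anti-B7-H3, 7.93, 13.1 and 12.9 under anti-PD1 and 20.6, 13.8 and 9.18 under IgG. All anti-B7-H3 libraries were above all anti-PD1 libraries for Itgax, as for 7.57% of all genes, and IgG overlapped the anti-B7-H3 group. In IgG replicate 3, reads were 1.55 times the receptor prediction for Itgax, 2.06 times for Itgam and 3.9 times for Itgb2. Between the antibodies no further complement gene passed over all genes (lowest edgeR adjusted p = 0.749). Cd93, a membrane glycoprotein of endothelial and myeloid cells, stood at 0.59 with anti-B7-H3 and 0.67 in the anti-PD1 group against IgG (edgeR adjusted p = 0.320 and 0.151).

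C1ra and C1s1 encode the proteases that act with C1q. C1ra had 16.4, 17.9 and 21.6 CPM under anti-B7-H3, 11.3, 17.8 and 14.7 under anti-PD1 and 17.1, 10.5 and 10.6 under IgG. C1s1 stood at 0.54 with anti-B7-H3 and 0.68 in the anti-PD1 group against IgG (edgeR adjusted p = 0.483 and 0.189), and Masp1, a lectin pathway protease, at 0.10 and 0.74 (edgeR adjusted p = 0.934 and 0.150). C2, the partner of C4, had 2.15, 1.89 and 6.55 CPM under anti-B7-H3, 1.67, 2.45 and 1.61 under anti-PD1 and 2.33, 1.45 and 3.21 under IgG. The receptor prediction was exceeded 1.76-fold and 3.52-fold in IgG replicates 1 and 2 and was not reached in IgG replicate 3, at 0.819 times. C1ra and C1s1 have close copies in mice, C1rb and C1s2, which had few reads, and how reads divide within these pairs is uncertain. Cfp, which encodes properdin, a stabiliser of the alternative pathway enzyme, had 11.7, 10.9 and 39.1 CPM under anti-B7-H3, 8.36, 29.8 and 9.83 under anti-PD1 and 13.4, 7.25 and 4.59 under IgG.

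Genes of the terminal pathway, which form the membrane attack complex, had few reads. Hc, which encodes C5 in mice, had 0.409, 0.277 and 0.488 CPM under anti-B7-H3, 0.582, 0.387 and 0.196 under anti-PD1 and 1.17, 0.112 and 5.97 under IgG. Its reads in the IgG libraries were 0.118 to 0.688 times what the receptor genes predict. C6 stood at -0.79 with anti-B7-H3 and -1.66 in the anti-PD1 group against IgG (edgeR adjusted p = 0.684 and 0.181), and its IgG reads were 0.715 to 2.98 times the prediction. C7, C8a, C8b, C8g and C9 had too few reads to be tested.

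The genes whose log2 CPM most resembled the C1q mean over the 9 libraries, among 6977 genes with a mean of at least 3 log2 CPM, were Slc25a1, Tspo, Rps21, Nrros, Bop1 and Atp6v0c, with Pearson r from 0.972 to 0.987. For C3 they were Pfkm, Naaa, Tmem14c, Stoml2, Psmd13 and Arl6ip5, with r from 0.921 to 0.946. For C4b they were Steap2, Pwp2, Stard3, Ly75, Sorl1 and Grk6, with r from 0.778 to 0.820. The complement genes described here were left out of these lists. The values describe the 9 libraries, which differ in depth and background, and IgG replicate 3 is an extreme point for C1q. With libraries scaled by reads outside the satellites, 2 of the 6 names in each of the 3 lists stayed among the leading 6.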

How the data were processed

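Bulk RNA depleted of ribosomal RNA was measured in 9 libraries. Per the file headers, the authors deposited for each library estimated counts per transcript (not normalized), TPM scaled by effective length, and transcript lengths. The submitters' processing notes name FastQC 0.11.8 and GRCm38. The sources used here do not give a quantifier. Of 58083 transcripts, 57473 were matched to GENCODE M21, and estimated counts were summed per gene and rounded. Testing used edgeR 4.0.16 under R 4.3.3: TMM scaling, filterByExpr, 1 robust quasi-likelihood model over the 9 libraries with no term besides group, and Benjamini-Hochberg adjustment over 12980 genes at 0.05. The test was also run on simulated counts with the same spread for all genes and no difference in satellite or receptor share between groups. That run cannot speak to the background of the IgG libraries. Deposited TPM were rescaled to genes outside the satellites. DESeq2 1.42.0 and limma 3.58.1 were alternatives. A gene counted as a satellite gene when over 30% of the 15-base words of a transcript occur in those of Gm10801. Receptor predictions use 1510 receptor genes and the longest listed transcript. Named genes are the 9, the 12 most abundant other complement genes (1 of them is not reported here) and the 6 most alike, besides Hc and C6, chosen after their values were seen. The members and lists were chosen with earlier results of these data known. All IgG libraries have a high satellite share, so this share and the IgG group cannot be told apart. Motifs and receptor predictions describe the genes and were given no test; the predictions were added after seeing the data.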

Additional observations from a re-analysis of the deposited data

How the results depend on the processing

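Of 540 estimates for the 9 genes under 20 alternatives, 38 changed sign. With library totals as the scale, which include satellite reads, 9 of 9 genes were called with anti-B7-H3 and 9 of 9 with anti-PD1 against IgG, and 9 in the test of any difference. The median of all genes moved there to 3.37 and 3.15, and to 0.29 and 0.26 with reads outside the satellites as the scale. Outside library totals, 0 of 513 estimates passed, and the lowest adjusted p was 0.0839 (Cfb with anti-B7-H3 against IgG, edgeR without a read filter).

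With the receptor level as a covariate, changes with anti-B7-H3 against IgG turned to -0.86 for C1qa, -0.95 for C1qb, -1.66 for C1qc, -0.31 for Cfb, -0.72 for C3ar1, -0.17 for C5ar1 and -0.65 for Serping1. Changes with anti-PD1 against IgG turned to -1.08 for C1qa, -0.88 for C1qb, -0.050 for C3, 0.059 for C4b, -0.73 for Cfb, -0.64 for C3ar1, -0.30 for C5ar1 and -0.94 for Serping1. Those of anti-B7-H3 against anti-PD1 turned to -0.068 for C1qb and -0.081 for C3ar1. With quality weights, anti-PD1 against IgG turned to -0.44 for C1qa and -0.11 for C5ar1. In that comparison C1qc turned to 2.97 and C4b to 3.03 with library totals, to 0.064 and 0.055 with reads outside the satellites, and to 0.078 and 0.016 without a read filter. The cause was not tested.

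Leaving out single libraries, anti-B7-H3 against IgG ranged from -0.025 to 0.74 for C1qc. Anti-PD1 against IgG ranged from -0.34 to 0.51 for C1qa, -0.78 to 0.20 for C1qc, -0.36 to 0.077 for C4b and -0.046 to 0.80 for C5ar1. Anti-B7-H3 against anti-PD1 ranged from -0.21 to 1.27 for C3, -0.017 to 0.69 for C3ar1, -0.11 to 0.88 for C5ar1 and -0.076 to 1.09 for Serping1. Genes called over the whole table were 79, 53 and 0 for anti-B7-H3 against IgG, anti-PD1 against IgG and anti-B7-H3 against anti-PD1, and ran without single libraries from 8 to 454, 9 to 438 and stayed at 0. DESeq2 gave 502, 822 and 24, and the receptor covariate 0, 5 and 0.

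The labels do not say what a replicate number shares. Same-numbered libraries correlated from -0.322 to 0.180 in their deviations from the group means, and differently numbered ones from -0.434 to 0.522. Deviations within 3 libraries constrain each other, so these correlations cannot settle whether the numbers mark a pairing. With replicate block, 0 of the 9 genes were called in any comparison, and genes called over the whole table were 103, 134 and 0. Of the 6 genes most like C1q, C3 and C4b, 2 stayed in each list with reads outside the satellites as the scale. The C1q level relative to macrophage genes was -0.06 with anti-B7-H3 minus IgG, and ran from -0.51 to 0.23 without single libraries, an alternative chosen after seeing the data. IgG depth limits the rest: IgG replicate 3 held 7 to 95 reads of each gene.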
